A study of Mus musculus with 12 samples.

Results

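The BCL2 family of apoptosis regulators was followed as 10 genes chosen by their symbols, 3 that favour survival (Bcl2, Bcl2l1 and Mcl1) and 7 that favour death (Bax, Bak1, Bid, Bcl2l11, Bbc3, Pmaip1 and Bmf). All 10 were found in the deposited table of 19037 genes, and all 10 passed the filter on low counts. The rule that picks them reads only the gene symbol. RNA came from AML12, a liver line established from a mouse carrying a human TGF-alpha transgene, in 4 groups of 3 libraries. The first group received FK228 (romidepsin, an inhibitor of class I histone deacetylases, labelled HDI), the second overexpressed mutant forms, termed YF, of these same enzymes (HDACs), and the third received FK228 on top of YF overexpression. The fourth group was the control. Description codes of both groups without YF begin with GFP and those of both groups with YF begin with YF. The codes are not explained. Which HDACs were mutated, what promoter drove them, the dose and the duration of treatment were not stated in the labels. The study asked how the effects of the inhibitor and of the mutants on the transcriptome compare.

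BCL2 family proteins decide whether the outer membrane of the mitochondrion stays intact. Bax and Bak1 encode the effectors, which form pores in that membrane and let cytochrome c out, after which caspases are activated. Bcl2, Bcl2l1 (which gives BCL-XL) and Mcl1 encode proteins that hold the effectors and the BH3-only proteins in check. Bid, Bcl2l11 (BIM), Bbc3 (PUMA), Pmaip1 (NOXA) and Bmf encode BH3-only proteins, which share a short helical motif and relay stress signals to the other members. In the liver, hepatocytes depend on BCL-XL and MCL1 for survival, and BID links death receptors to the mitochondrion. Much of this control acts on the proteins, through cleavage, phosphorylation and turnover, which RNA counts do not show.

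The 250 bases before the annotated start of transcription are printed here for 4 members, because Bmf changed most, Bak1 was a lowered effector, Bcl2l11 had the most different FK228 effects without and with YF, and Bcl2 passed the test in 1 of 7 comparisons. These windows begin where the RefSeq span of the gene ends, so they hold no transcribed base of that span. Bmf and Bcl2l11 have other annotated starts further in, which are not shown. Sequences are from RefSeq, build GRCm38.p6, read 5′ to 3′ on the strand of the gene, and capitals mark matches on either strand to the motifs named after them.
Bmf, chr2:118549687-118549936, minus strand: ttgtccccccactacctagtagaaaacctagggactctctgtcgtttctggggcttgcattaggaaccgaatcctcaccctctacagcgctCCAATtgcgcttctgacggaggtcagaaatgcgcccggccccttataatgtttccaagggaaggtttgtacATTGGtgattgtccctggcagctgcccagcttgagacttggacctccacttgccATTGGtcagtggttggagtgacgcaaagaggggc
Bak1, chr17:27028628-27028877, minus strand: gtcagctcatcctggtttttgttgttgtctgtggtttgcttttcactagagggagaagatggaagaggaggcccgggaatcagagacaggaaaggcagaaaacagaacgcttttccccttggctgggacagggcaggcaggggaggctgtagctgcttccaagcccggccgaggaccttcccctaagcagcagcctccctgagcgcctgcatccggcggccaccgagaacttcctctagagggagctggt
Bcl2l11, chr2:128125788-128126037, plus strand: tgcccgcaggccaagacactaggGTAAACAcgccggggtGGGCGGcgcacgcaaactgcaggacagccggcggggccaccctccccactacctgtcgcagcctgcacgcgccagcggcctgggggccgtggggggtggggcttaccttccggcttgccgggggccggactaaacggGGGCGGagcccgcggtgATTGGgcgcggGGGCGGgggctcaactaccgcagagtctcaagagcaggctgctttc
Bcl2, chr1:106714291-106714540, minus strand: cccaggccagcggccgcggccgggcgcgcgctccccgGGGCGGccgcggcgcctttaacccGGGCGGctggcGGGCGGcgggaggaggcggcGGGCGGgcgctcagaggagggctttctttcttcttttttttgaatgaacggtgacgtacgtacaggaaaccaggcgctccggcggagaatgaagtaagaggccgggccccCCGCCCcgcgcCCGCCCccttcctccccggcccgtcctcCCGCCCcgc
The motifs searched were the E-box CACGTG, the GC box GGGCGG, the cyclic AMP response element TGACGTCA, the FOXO motif TGTTTAC, the E2F motifs TTTCGCGC and TTTGGCGC, the CCAAT box CCAAT, the AP-1 motif TGACTCA and the p53 half-site. Bmf held 3 CCAAT boxes, Bcl2 held 7 GC boxes, and Bcl2l11 held 3 GC boxes, 1 CCAAT box and 1 FOXO motif, with no overlap between motifs of different kinds. None of the motifs matched in the Bak1 window. Among 27025 promoters of the same length, 32.9% held a GC box, 34.5% a CCAAT box and 3.09% the FOXO motif. The windows were 54% G or C in Bmf, 58.4% in Bak1, 72% in Bcl2l11 and 74.8% in Bcl2, against a median of 52% over those 27025 promoters.

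Libraries held 23664456 to 26123005 counts. The first 2 principal components took 71.1% and 11.8% of the variance, with no library apart from its group. The hepatocyte label was checked against markers. Alb, the albumin gene, averaged 0.0264 to 0.265 CPM (counts scaled to a common library size) in the 4 groups, while Hnf4a, a hepatocyte transcription factor gene, averaged 48.9 CPM with FK228, 126 with YF, 28.8 with both and 177 in control. The plasma protein gene Ttr averaged 0.854 CPM with FK228, 3.49 with YF, 0.40 with both and 9.0 in control. The summed level of 7 hepatocyte markers was 363 to 420.1 CPM with FK228, 733 to 831 with YF, 384 to 424 with both and 647 to 758 in control. Trf, the transferrin gene, carried most of that sum, at 347 CPM with FK228, 649 with YF, 376 with both and 517 in control. Of 6 hepatocyte markers tested, 5 were lower with FK228, 3 lower and 2 higher with YF, and 6 lower with both, each against control. Among all tested genes, 35.6% were lower with FK228, 14.6% lower and 18% higher with YF, and 38.6% lower with both. Summed macrophage and leukocyte markers, led by Cd68, were 22.9 to 28.6 CPM with FK228, 9.97 to 12.1 with YF, 52 to 60.5 with both and 4.10 to 4.55 in control, with the macrophage-defining Adgre1 under 0.5 CPM in every library. Summed stellate and mesenchymal markers, led by Des, were 30.4 to 31.5 CPM with FK228, 12.6 to 18.7 with YF, 32.2 to 40.01 with both and 7.70 to 10.4 in control, with Lrat and Pdgfrb under 0.5 CPM in every library. Biliary and progenitor markers (4 of 5 listed) summed to 5093 to 5736 CPM with FK228, 5551 to 5824 with YF, 4339 to 5132 with both and 4795 to 4965 in control, nearly all of it Spp1. The biliary keratin gene Krt19 averaged 167 CPM with FK228, 294 with YF, 107 with both and 604 in control. Krt7 averaged 76 CPM with FK228, 65.1 with YF, 34.1 with both and 94.6 in control, and Sox9 averaged 13.1, 17.7, 11.9 and 21.1 CPM in the same order. Krt19, Krt7 and Sox9 were each called lower in all 3 comparisons with control. Endothelial markers reached at most 1.43 CPM. The part of these markers in the results on the 10 members was not tested. In bulk RNA, fewer cells carrying a transcript and less of it per cell cannot be told apart. The labels do not say whether replicate libraries derive from separate cultures. P-values therefore measure library-to-library spread, which may be technical.

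Transcript levels per length, as deposited TPM (transcript abundance corrected for length and library size), set Bax far above the other members. Bax averaged 498 ± 35.6 TPM with FK228, 605.5 ± 27 with YF, 407 ± 14.1 with both and 553 ± 30.8 in control (SD, n = 3 each). Bcl2l1 followed in control at 74.1 ± 3.46 TPM, then Bid at 71.1 ± 5.06, Bak1 at 67.9 ± 2.95, Mcl1 at 60.9 ± 2.33 and Bmf at 57.6 ± 7.36 (SD, n = 3). Bcl2l1, Bid and Bak1 overlapped their neighbours in that order, as did Mcl1 and Bmf. Bbc3 and Pmaip1 shared the next place at 19.9 ± 0.443 and 19.9 ± 1.91 TPM, and Bcl2l11 at 5.90 ± 0.665 and Bcl2 at 2.32 ± 0.25 came last without overlap. Bax stayed first and Bcl2 last in each of the 4 groups. Bmf took rank 8 with both treatments, at 12.5 ± 0.72 TPM and below Bbc3 at 18.4 ± 0.997, against rank 6 in control.

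**Figure D1:**
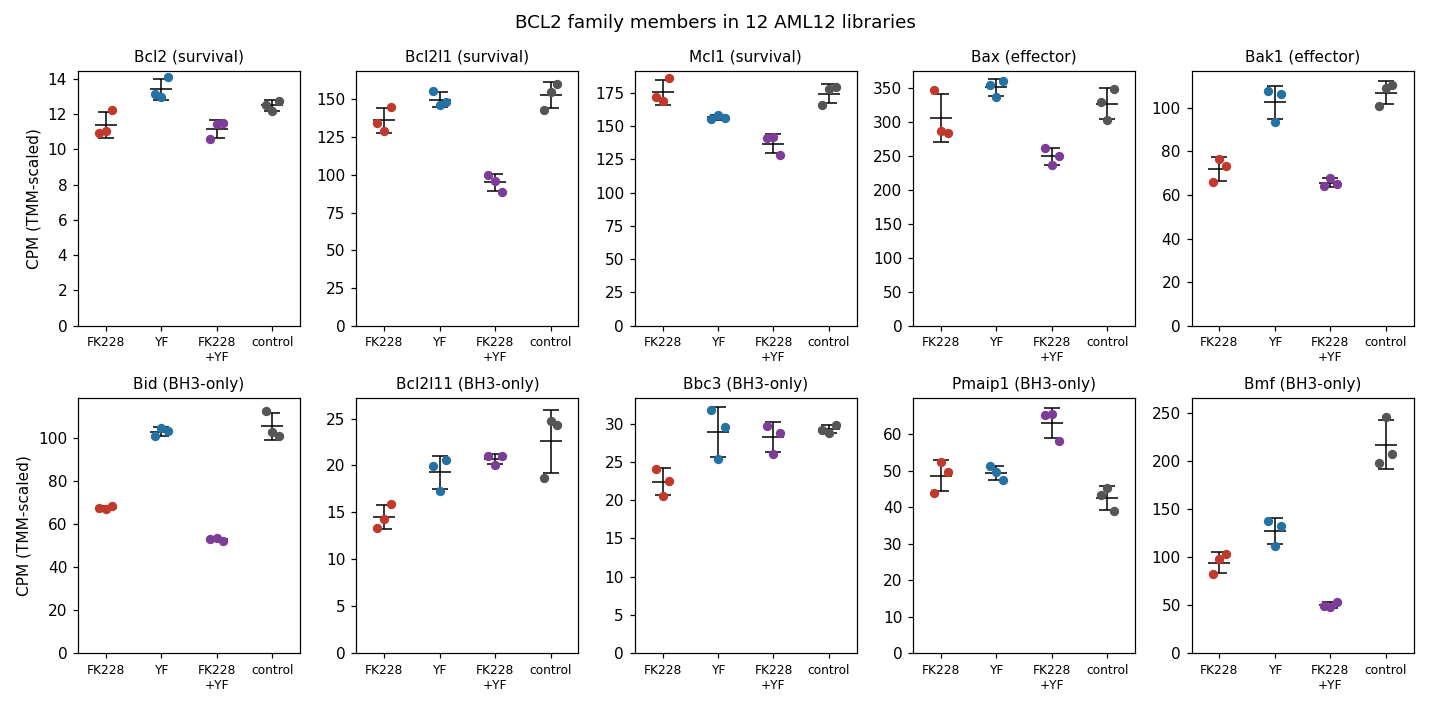
CPM of each of the 10 members in each library, by group, with the vertical axis from 0. The axis label reads TMM-scaled, but the values carry no TMM factors. Points are libraries, and the black bar and whiskers are the mean and SD of 3. Bmf averaged 94.3, 127 and 50 CPM with FK228, YF and both, against 217 in control, and Pmaip1 averaged 63 CPM with both, against 42.6 in control.

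The member genes are located on GRCm38.p6 as annotated by RefSeq, and comparisons against control share the same 3 control libraries. Each comparison was fitted over 13346 genes with edgeR's quasi-likelihood test, and a gene was called at a Benjamini-Hochberg adjusted p below 0.05. FK228 versus control, the effect of the inhibitor without YF, called 1 member higher and 5 lower of 10, where 68.8% of all tested genes were called (33.2% higher and 35.6% lower). YF versus control, the effect of the mutants alone, called no member higher and 3 lower (Mcl1, Bcl2l11 and Bmf), where 32.6% of all genes were called (18% higher and 14.6% lower). Among the other 7 members, Pmaip1 alone had an unadjusted p under 0.05 in this comparison (0.0315). Both treatments against control called 1 higher and 6 lower, where 77.3% of all genes were called (38.7% higher and 38.6% lower). FK228 in YF cells called 1 higher and 7 lower, where 70.6% of all genes were called (34.7% higher and 35.9% lower). YF in FK228-treated cells called 3 higher and 6 lower, where 52.9% were called (26.6% higher and 26.3% lower). FK228 set directly against YF called 1 higher and 5 lower, where 61.1% were called (27.8% higher and 33.3% lower). Taken over both directions, the shares of members called lie near those of all genes, apart from YF in FK228-treated cells, so those totals are not a result about the family as such. In each comparison with control more members were called lower than higher, and the median log2 fold change of the 10 members was -0.23 with FK228, -0.09 with YF and -0.38 with both against control, beside -0.02, 0.01 and 0.00 over all tested genes. With FK228 the 7 death members had a median of -0.52 and the 3 survival members -0.09. With both treatments these medians were -0.40 and -0.36.

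**Figure D2:**
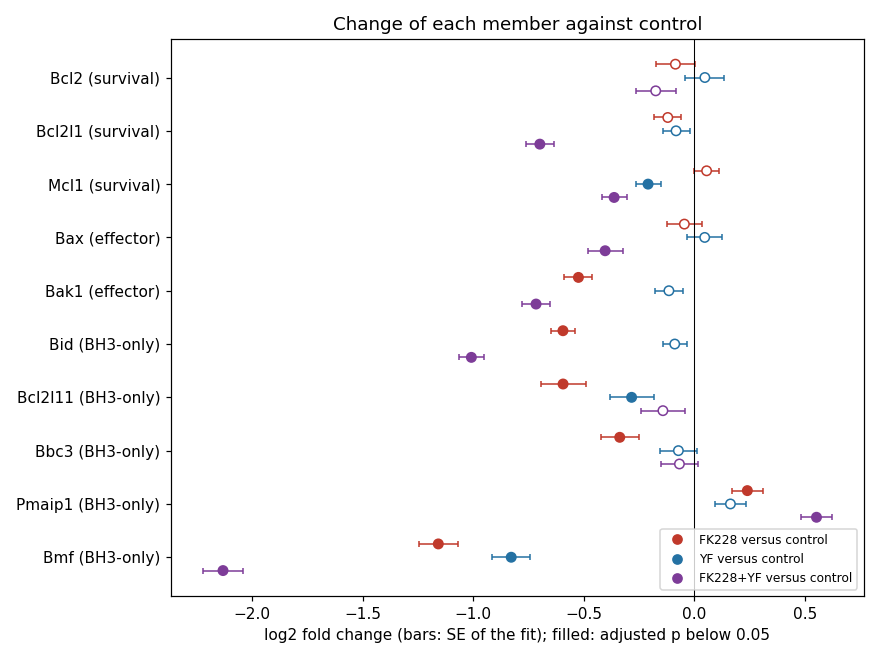
Log2 fold change of each member against control (horizontal axis, bars are the SE of the fit) for FK228, YF and both treatments; filled points passed the test. Bmf lay lowest in all 3 comparisons, at -1.16, -0.83 and -2.13, and Pmaip1 was higher with FK228 and with both.

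Among the survival genes, Bcl2l1 (gene ID 12048, chr2:152758732-152833803, minus strand) was low where FK228 and YF met. It had 134, 129 and 145 CPM with FK228, 155, 146 and 148 with YF, 100.2, 96.3 and 88.7 with both, and 143, 155 and 160.3 in control. The 3 libraries with both treatments lay below the other 9. Against control Bcl2l1 fell by 0.70 ± 0.06 on the log2 scale with both treatments (adjusted p = 1.4e-09, edgeR), while FK228 alone gave -0.12 ± 0.06 (adjusted p = 0.0876) and YF alone gave -0.08 ± 0.06 (adjusted p = 0.324). FK228 alone passed the test without control replicate 1 (log2 fold change -0.17). The counts join the transcripts of BCL-XL and of its short, death-promoting splice form, so the split between them is not known.

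Mcl1 (gene ID 17210, chr3:95656944-95663179, plus strand), whose short-lived protein guards against BAK1 and the BH3-only proteins, was lower in both groups with YF. Its levels were 172, 169 and 186 CPM with FK228, 155, 158 and 156 with YF, 141, 141 and 128 with both, and 166, 178 and 179 in control. YF libraries lay below control libraries without overlap, and libraries with both treatments lay below all the others. Against control, Mcl1 changed by 0.06 ± 0.06 with FK228 (adjusted p = 0.393), by -0.21 ± 0.06 with YF (adjusted p = 0.00731) and by -0.36 ± 0.06 with both (adjusted p = 6.53e-06, edgeR). In YF cells FK228 lowered Mcl1 by -0.15 ± 0.06 (adjusted p = 0.0213), a call that ended without YF replicate 2 (-0.14), without FK228+YF replicate 3 (-0.11), with RLE scaling (-0.12), with DESeq2 (-0.12) and with the filter of 5 CPM (-0.12).

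Bcl2 (gene ID 12043, chr1:106538176-106714290, minus strand), the founding member of the family, was the scarcest and had 253 to 357 counts in a library. It had 10.9, 11 and 12.2 CPM with FK228, 13.1, 12.9 and 14.1 with YF, 10.6, 11.4 and 11.5 with both, and 12.5, 12.2 and 12.8 in control. No comparison with control passed the test (adjusted p = 0.406 with FK228, 0.723 with YF and 0.0825 with both, edgeR), and the 95% interval for both treatments was -0.36 to 0.01 on the log2 scale. In YF cells FK228 lowered Bcl2 by -0.22 ± 0.09 (adjusted p = 0.0319). That call ended without YF replicate 3 (-0.19), FK228+YF replicate 1 (-0.19) or FK228+YF replicate 2 (-0.23), and with RLE scaling (-0.19), with DESeq2 (-0.19), without a count filter (-0.23) and with the filter of 5 CPM (-0.19).

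Of the effectors, Bax (gene ID 12028, chr7:45461695-45466903, minus strand) was called against control only where FK228 and YF were combined. Bax had 346, 287 and 284 CPM with FK228, 354, 337 and 360.1 with YF, 262, 237 and 249.6 with both, and 329, 303 and 348 in control. FK228 and control libraries overlapped, YF and control libraries overlapped, and libraries with both treatments lay below all the others. Against control Bax was -0.05 ± 0.08 with FK228 (adjusted p = 0.628), 0.05 ± 0.08 with YF (adjusted p = 0.694) and -0.40 ± 0.08 with both (adjusted p = 0.000123, edgeR). The 95% interval of the FK228 effect ran from -0.21 to 0.12 and that of the YF effect from -0.12 to 0.21. Set directly against YF, FK228 gave -0.09 ± 0.08 (adjusted p = 0.326), which passed the test without FK228 replicate 1 (-0.19).

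Bak1 (gene ID 12018, chr17:27019812-27028627, minus strand), the effector that resides on mitochondria, was lower with FK228 whether or not YF was present. Its levels were 65.9, 76.5 and 73.5 CPM with FK228, 108, 93.7 and 106 with YF, 64, 68 and 65.1 with both, and 101, 109 and 111 in control. Both groups with FK228 lay below both groups without it. Bak1 fell by 0.52 ± 0.06 on the log2 scale with FK228 (adjusted p = 2.8e-07) and by 0.72 ± 0.06 with both treatments against control (adjusted p = 1.49e-09), and YF alone gave -0.11 ± 0.06 (adjusted p = 0.17, edgeR). In FK228-treated cells YF gave a further -0.19 ± 0.06 (adjusted p = 0.0166), with overlapping libraries, and that call ended without FK228 replicate 2 (-0.16) or FK228+YF replicate 1 (-0.18).

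Bmf (gene ID 171543, chr2:118528757-118549686, minus strand), whose protein is tethered to the cytoskeleton by dynein light chain 2 until stress releases it, changed most of the 10. Its levels were 82, 97.9 and 103 CPM with FK228, 138, 111.5 and 132 with YF, 48.9, 47.9 and 53.4 with both, and 199, 246 and 207.5 in control. In these CPM, which carry no TMM factors, the 4 groups did not overlap in any pair. Bmf fell by 1.16 ± 0.09 on the log2 scale with FK228 (adjusted p = 2.43e-09), by 0.83 ± 0.09 with YF (adjusted p = 1.44e-06) and by 2.13 ± 0.09 with both against control (adjusted p = 4.45e-13, edgeR). As a ratio, both treatments left Bmf at 0.228 of control. Ranked by log2 fold change against control, 6.29% of all tested genes lay below Bmf for FK228, 1.68% for YF and 3.32% for both.

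Bid (gene ID 12122, chr6:120893119-120917062, minus strand), which caspase 8 cleaves to carry a death receptor signal to mitochondria, was lower with FK228 and lower again with both. Bid had 67.3, 66.8 and 68.6 CPM with FK228, 101, 105 and 103 with YF, 53.1, 53.6 and 52.1 with both, and 113, 103 and 101 in control. YF and control libraries overlapped and no other pair of groups did. Bid fell by 0.59 ± 0.05 on the log2 scale with FK228 (adjusted p = 4.29e-09) and by 1.01 ± 0.06 with both (adjusted p = 5.03e-13), and YF alone gave -0.09 ± 0.05 (adjusted p = 0.219, edgeR). Exons of Bid share 628 bases with exons of Bcl2l13 on the opposite strand in the GENCODE M21 annotation of GRCm38. The use of strand in counting is not given in the sources used here, so reads from that stretch may belong to either gene. Bcl2l13 itself, which encodes a mitochondrial outer membrane protein of the family, had 76.7 ± 6.78 CPM with FK228, 72 ± 2.65 with YF, 77.1 ± 1.18 with both and 70.6 ± 1.38 in control (SD, n = 3 each). Bak1 shares 614 exonic bases with Ggnbp1 on the opposite strand, which averaged 12.1 counts a library, Bcl2 shares 558 with D630008O14Rik on the opposite strand, and Bax shares 192 with Gm45808 on its own strand.

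Pmaip1 (gene ID 58801, chr18:66458604-66465558, plus strand), whose NOXA protein binds MCL1, was the member that rose. It had 43.9, 52.4 and 49.6 CPM with FK228, 51.2, 49.7 and 47.4 with YF, 65.1, 65.5 and 58.2 with both, and 43.4, 45.3 and 38.9 in control. In these CPM, which carry no TMM factors, FK228 and control libraries overlapped, and libraries with both treatments lay above all the others. Against control Pmaip1 rose by 0.24 ± 0.07 on the log2 scale with FK228 (adjusted p = 0.0051) and by 0.55 ± 0.07 with both (adjusted p = 3.45e-07), and YF alone gave 0.16 ± 0.07 (adjusted p = 0.0829, edgeR). All 3 YF libraries lay above the 3 control libraries in CPM without TMM factors, although the TMM-scaled test was not passed.

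Bcl2l11 and Bbc3, the genes of BIM and PUMA, which can engage all the survival proteins, were lowest with FK228 alone. Bcl2l11 (gene ID 12125) spans chr2:128126038-128162547 on the plus strand. It had 13.3, 14.3 and 15.9 CPM with FK228, 19.9, 17.3 and 20.6 with YF, 21, 20 and 21 with both, and 18.7, 24.7 and 24.3 in control. Its FK228 libraries lay below all the others, and the other 3 groups overlapped. Bcl2l11 fell by 0.59 ± 0.10 on the log2 scale with FK228 (adjusted p = 2.74e-05, edgeR) and gave -0.14 ± 0.10 with both against control (adjusted p = 0.197). Both treatments against control passed the test without control replicate 1 (-0.27). YF alone gave -0.28 ± 0.10 (adjusted p = 0.033), but leaving out YF replicate 1 (-0.30), YF replicate 2 (-0.22), control replicate 2 (-0.22) or control replicate 3 (-0.22) ended the call, as did fitting only YF and control libraries (-0.27).

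Bbc3, which lies at chr7:16308398-16318334, was called lower with FK228 alone, by a smaller amount than Bcl2l11. Its levels were 24.1, 20.6 and 22.5 CPM with FK228, 31.9, 25.4 and 29.6 with YF, 29.8, 26 and 28.9 with both, and 29.1, 28.9 and 29.9 in control. The FK228 libraries lay below all the others. Bbc3 fell by 0.34 ± 0.09 on the log2 scale with FK228 (adjusted p = 0.00168), and gave -0.07 ± 0.09 with YF (adjusted p = 0.559) and -0.07 ± 0.09 with both (adjusted p = 0.479, edgeR).

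Whether the inhibitor acted differently in cells with YF was tested as an interaction, the FK228 effect with YF minus that without. It called 5 members, 2 higher and 3 lower, where 26.5% of all tested genes were called (11.1% higher and 15.3% lower). The difference was largest for Bcl2l11, for which FK228 gave 0.14 ± 0.10 with YF and -0.59 ± 0.10 without, an interaction of 0.74 ± 0.14 (adjusted p = 0.000725, edgeR). For Bcl2l1 the FK228 effect was -0.62 ± 0.06 with YF and -0.12 ± 0.06 without (interaction -0.50 ± 0.09, adjusted p = 0.000279). For Bax it was -0.45 ± 0.08 with YF and -0.05 ± 0.08 without (interaction -0.41 ± 0.11, adjusted p = 0.0115), and for Bid -0.92 ± 0.06 and -0.59 ± 0.05 (interaction -0.33 ± 0.08, adjusted p = 0.00379). The interaction of Bbc3, 0.34 ± 0.12 (adjusted p = 0.0428), was not stable. It ended in 8 of the 12 fits that each left out a library, which were control replicates 2 and 3, FK228 replicates 2 and 3, YF replicates 2 and 3 and FK228+YF replicates 1 and 3, with values of 0.26 to 0.35, and also with DESeq2 (0.34) and without a count filter (0.32).

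**Figure D3:**
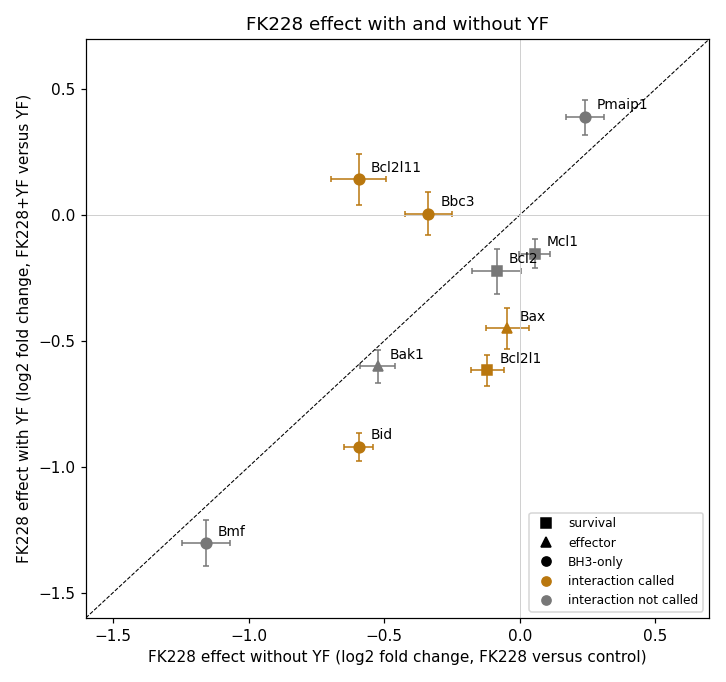
FK228 effect with YF (vertical axis, log2 fold change of FK228+YF versus YF) against the effect without YF (horizontal axis, FK228 versus control) for the 10 members; bars are SE and the dashed line marks equal effects. Bcl2l11 lies above the line at -0.59 and 0.14, Bcl2l1 and Bax lie below it, and Bmf and Bak1 lie near it.

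The other 5 members had interactions that did not pass the test. Bmf gave -0.15 ± 0.13 (95% interval -0.41 to 0.12), Bak1 -0.08 ± 0.09 (-0.26 to 0.11), Pmaip1 0.15 ± 0.10 (-0.06 to 0.36), Bcl2 -0.14 ± 0.13 (-0.40 to 0.13) and Mcl1 -0.21 ± 0.08 (-0.38 to -0.04, adjusted p = 0.06, edgeR). Mcl1 passed with DESeq2 (-0.21, adjusted p = 0.0484). The interval of Mcl1 is unadjusted, while the call is adjusted over all genes.

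YF was also compared with no YF within FK228-treated cells. There YF gave -0.58 ± 0.06 for Bcl2l1 (adjusted p = 1.5e-07), -0.42 ± 0.06 for Mcl1 (adjusted p = 3.42e-06), -0.97 ± 0.09 for Bmf (adjusted p = 1.27e-07), -0.41 ± 0.06 for Bid (adjusted p = 2.96e-06) and -0.36 ± 0.08 for Bax (adjusted p = 0.000865, edgeR). YF raised 3 BH3-only genes there, Bcl2l11 by 0.45 ± 0.10 (adjusted p = 0.000929), Pmaip1 by 0.31 ± 0.07 (adjusted p = 0.000786) and Bbc3 by 0.27 ± 0.09 (adjusted p = 0.0128). The Bbc3 call ended without FK228 replicate 2 (0.19) or FK228+YF replicate 1 (0.23). Bcl2 gave -0.09 ± 0.09 and was not called (adjusted p = 0.427).

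Set directly against YF, FK228 left 5 of 7 death members lower and Mcl1 higher. The death members Bax and Pmaip1 were not called. FK228 minus YF was -0.51 ± 0.05 for Bid (adjusted p = 7.8e-08), -0.41 ± 0.06 for Bak1 (adjusted p = 1.15e-05), -0.33 ± 0.09 for Bmf (adjusted p = 0.0037) and 0.26 ± 0.06 for Mcl1 (adjusted p = 0.00042, edgeR). Bcl2l11 at -0.31 ± 0.10 (adjusted p = 0.0129) and Bbc3 at -0.27 ± 0.09 (adjusted p = 0.0117) were called less firmly. The Bcl2l11 call ended without FK228 replicate 1 (-0.25), FK228 replicate 2 (-0.28) or YF replicate 3 (-0.26), and the Bbc3 call ended without FK228 replicate 2 (-0.18) or YF replicate 1 (-0.20). For Pmaip1 the difference was 0.08 ± 0.07, with a 95% interval of -0.07 to 0.22.

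Survival and death members were then set against each other by their summed TPM in each library, as a description with no test. The 5 BH3-only genes summed to 98.5, 108 and 119 TPM with FK228, 160, 145.5 and 155 with YF, 98.7, 99.5 and 97.5 with both, and 176, 184 and 164 in control. Both groups with FK228 lay below both groups without it. The 3 survival genes summed to 117, 118 and 142 TPM with FK228, 137, 129.6 and 132 with YF, 94.8, 96.1 and 87.1 with both, and 131, 142 and 139 in control, and libraries with both treatments lay below all the others. Bax and Bak1 together summed to 542 ± 31.2 TPM with FK228, 672 ± 32.9 with YF, 447 ± 12.2 with both and 621 ± 29.3 in control (SD, n = 3 each).

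The log2 ratio of survival to BH3-only sums was 0.25, 0.13 and 0.25 with FK228, -0.22, -0.17 and -0.23 with YF, -0.06, -0.05 and -0.16 with both, and -0.42, -0.38 and -0.24 in control. FK228 libraries were the only ones above 0 and lay above the other 9, and libraries with both treatments lay above YF and control libraries. The mean difference from control was 0.55 with FK228, 0.14 with YF and 0.25 with both. Without Bmf in the sum these differences were 0.34, -0.08 and -0.13, so the direction with YF and with both rested on that 1 gene. The ratio of survival to all 7 death members was dominated by Bax, which made up 76.5 ± 2.77% of the death sum with FK228, 73.4 ± 0.404% with YF, 74.6 ± 0.987% with both and 69.5 ± 2.16% in control. That ratio differed from control by 0.16 with FK228, -0.10 with YF and -0.02 with both. The FK228 value was 0.07 without FK228 replicate 3, the YF value was -0.06 without control replicate 2, and the value with both was 0.02 without control replicate 2 or FK228+YF replicate 3 and -0.06 and -0.07 without control replicate 1 or FK228+YF replicate 2. In this ratio the ranges of libraries overlapped between FK228 and control, between both treatments and control, and between YF and control.

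**Figure D4:**
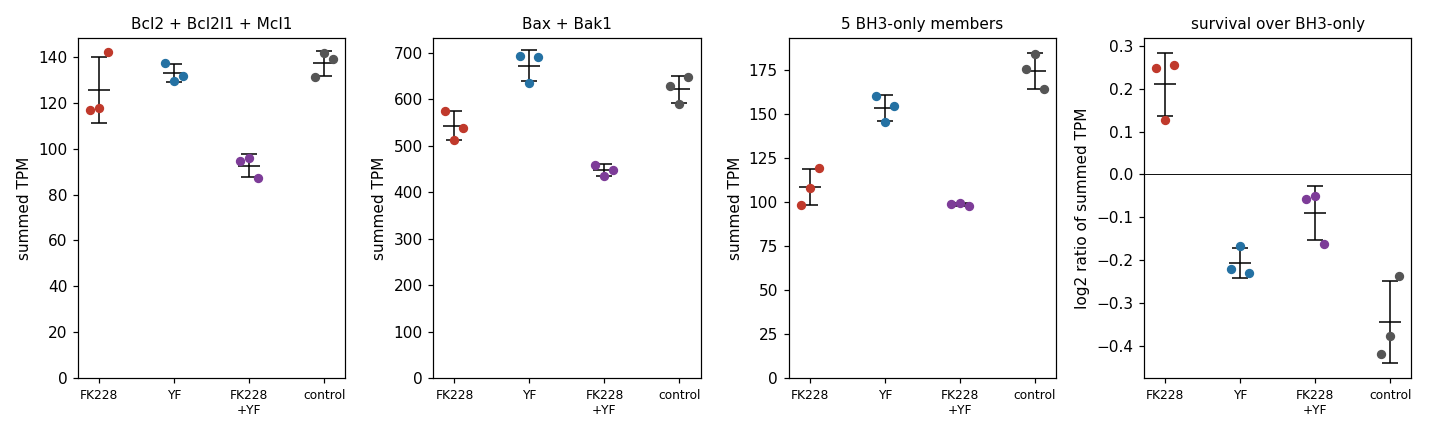
Summed TPM of the survival genes, of Bax and Bak1 and of the 5 BH3-only genes, and the log2 ratio of survival to BH3-only sums, in each library (points) with the mean and SD of 3 (bars). BH3-only sums reached 98.5 to 119 TPM with FK228, against 164 to 184 in control.

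The makeup of the BH3-only sum shifted with treatment. Bmf made up 22 ± 1.7% of it with FK228, 22.2 ± 1.73% with YF, 12.7 ± 0.849% with both and 33 ± 2.88% in control (SD, n = 3 each). Pmaip1 made up 20.3 ± 1.31% with FK228, 15.4 ± 0.692% with YF, 28.7 ± 1.66% with both and 11.4 ± 0.471% in control. Bid held 40.7 ± 1.45% with FK228, 46.2 ± 2.41% with YF, 34.9 ± 0.532% with both and 40.8 ± 2.71% in control.

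Other genes of the family were read from a list of 15. Of these, 10 were tested, and the blood cell genes Bcl2a1a, Bcl2a1b and Bcl2a1d, whose copies are nearly identical, reached at most 0.0767 CPM in any library, and Hrk at most 0.0845 CPM. FK228 versus control called 5 higher and 3 lower, YF versus control 2 and 2, and both versus control 4 and 2. In the same order, 68.8%, 32.6% and 77.3% of all tested genes were called. Bcl2l2, the survival gene of BCL-W, fell by 0.53 on the log2 scale with FK228 (adjusted p = 5.09e-05) and by 0.88 with both (adjusted p = 4.97e-08, edgeR), to 31.7 ± 0.85 and 25.9 ± 1.98 CPM, against 47.3 ± 8.56 in control. YF alone gave -0.20 for Bcl2l2 (adjusted p = 0.10). Bcl2l12 fell by 0.51 with FK228 and 0.75 with both, and YF alone gave -0.11 (adjusted p = 0.305). Bcl2l15 rose by 1.95 with FK228, 0.75 with YF and 1.78 with both, at 3.55 ± 0.895, 1.66 ± 0.461 and 3.31 ± 0.271 CPM, against 0.952 ± 0.12 in control. Bnip3, a mitophagy receptor gene, rose by 0.44 with FK228 (adjusted p = 0.0084), fell by 0.44 with YF (adjusted p = 0.0201) and gave 0.08 with both (adjusted p = 0.562). Its relative Bnip3l rose by 0.42 with FK228, fell by 0.20 with YF and rose by 0.22 with both. Bnip3l had 123.6, 118 and 120 CPM with YF and 116.7, 138.2 and 145.3 in control. Bnip3 had 183.1, 144 and 167.1 CPM with YF and 166.3, 236.2 and 243.6 in control. YF and control libraries thus overlapped for both genes. FK228 set against YF gave 0.88 for Bnip3 and 0.62 for Bnip3l, both called.

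Downstream of the family, 14 genes of the mitochondrial pathway were tested, of which 4 were higher and 6 lower with FK228, 3 and 2 with YF, and 6 and 5 with both, each against control. Over all tested genes the shares called were 68.8% with FK228, 32.6% with YF and 77.3% with both. Xiap, the gene of a caspase inhibitor, fell by 0.58 with FK228, 0.34 with YF and 1.10 with both (adjusted p = 1.88e-08, 0.000122 and 3.87e-13, edgeR), to 80 ± 5.67, 101 ± 3 and 58.2 ± 2.63 CPM, against 123 ± 6.9 in control. Dffa, which encodes the inhibitor of the caspase-activated nuclease, rose by 0.39 with FK228, 0.45 with YF and 1.36 with both, to 17.4 ± 0.499, 19.3 ± 0.95 and 35.3 ± 0.652 CPM, against 13.7 ± 1.1 in control. Casp6 fell by 0.88 with FK228, 0.31 with YF and 0.89 with both. Dffb, the nuclease gene itself, fell by 0.74 with FK228, while YF gave 0.27 (adjusted p = 0.245) and both gave -0.31 (adjusted p = 0.134). Cycs, the cytochrome c gene, rose by 0.36 with YF and 0.72 with both, and FK228 gave 0.22 (adjusted p = 0.0604).

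Of 11 tested death receptor genes, 4 were higher and 6 lower with FK228, 3 and 3 with YF, and 4 and 5 with both, each against control. The shares of all tested genes called there were 68.8%, 32.6% and 77.3%. Fas, the receptor gene, rose by 0.72 with FK228, 0.26 with YF and 0.30 with both, to 198 ± 7.66, 154 ± 5.07 and 154 ± 3.27 CPM, against 124 ± 10.4 in control. Fadd, the adaptor gene, fell by 0.78 with FK228 and 1.06 with both, and YF gave -0.15 (adjusted p = 0.179, edgeR). Casp8, the gene of the caspase that cleaves BID, fell by 0.72 with FK228 and 1.25 with both, to 63.5 ± 0.606 and 45.9 ± 1.53 CPM, against 108 ± 5.96 in control, and YF gave 0.01 (adjusted p = 0.888). Both inhibitor of apoptosis genes were called lower in all 3 comparisons, Birc3 at -0.85 with FK228, -0.32 with YF and -1.86 with both, and Birc2 at -0.58, -0.23 and -1.11. Tnfrsf10b, a death receptor gene, rose by 0.37 with FK228, 0.35 with YF and 0.28 with both, and Tradd fell by 0.26, 0.29 and 0.47.

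Known regulators of the family were read from a list of 13, of which 12 were tested. FK228 versus control called 5 higher and 2 lower, YF versus control 4 and 1, and both versus control 6 and 3. These comparisons called 68.8%, 32.6% and 77.3% of all tested genes. Trp53, which encodes the p53 activator of Bax, Bbc3 and Pmaip1, fell by 1.05 on the log2 scale with FK228, 0.16 with YF and 1.52 with both (adjusted p = 7.2e-13, 0.0253 and 1.02e-15, edgeR), to 99.3 ± 4.08, 197 ± 8.22 and 74.9 ± 2.61 CPM, against 212 ± 10.2 in control. Ddit3, the gene of CHOP, rose by 0.77 with FK228, 0.57 with YF and 2.22 with both, to 59.4 ± 2.69, 55.5 ± 1.95 and 170 ± 4.88 CPM, against 36 ± 1.51 in control. Mdm2, the ligase gene that limits p53, rose by 0.58 with FK228, 0.60 with YF and 1.02 with both. E2f1 fell by 0.67 with FK228 and 0.61 with both, and YF gave 0.15 (adjusted p = 0.15). Atf4 rose by 0.22 with YF and fell by 0.18 with both, and FK228 gave -0.14 (adjusted p = 0.0925).

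Genes with a pattern most like that of a member were sought for the 2 members whose group means spanned at least 1 on the log2 scale, Bmf (2.13) and Bid (1.01). Likeness was the root mean square difference of log2 CPM centred over the 12 libraries, among 10178 named genes with a mean of at least 5 CPM. Nearest to Bmf were Kcnk5 at 0.0811, Sertad4 at 0.128 and Grb7 at 0.134. Nearest to Bid were Safb at 0.0455, Zmynd11 at 0.0476 and Cibar1 at 0.0517.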

How the data were processed

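RNA-seq of 12 AML12 libraries (4 groups of 3) was read from the authors' deposited table of 19037 genes. Per the file headers and the tools named, the authors deposited an expected count for each gene, before any scaling, with FPKM and TPM beside it. Of these expected counts 16.6% were not whole numbers. Tools listed by the submitters' processing notes are RSEM 1.2.12, Bowtie2 2.2.5, HISAT2 2.0.4 and DESeq2 1.4.5, with the build GRCm38.p6. Strand use is not given in the sources used here. Counts were rounded and tested with edgeR 4.0.16 (TMM scaling, filterByExpr, robust quasi-likelihood fit over all 4 groups, Benjamini-Hochberg adjustment over 13346 genes) in R 4.3.3. Printed CPM carry no TMM factors, and overlap between groups in CPM was read from these values. The tests, the principal components, the search for like genes and the mean CPM used to pick genes had TMM scaling. SE is the absolute log2 fold change divided by the square root of F. Levels between genes and class sums used the deposited TPM. Library totals were 23664456 to 26123005 counts, and the SE of each fold change gives its precision. Alternatives were DESeq2 1.42.0, limma-voom 3.58.1, RLE scaling, keeping every counted gene and requiring 5 CPM in 3 libraries. Further alternatives were compared groups only, a replicate block and each library left out. The fitting steps were tested on simulated data in which few genes changed, unlike the data here. All 10 members were named, with up to 3 called genes per list and comparison of the largest change and a mean of at least 1 CPM. A gene that this rule names is not reported here. Members and lists were chosen with earlier results of these data known. Sequences came from RefSeq tables; protein sequences were not used here.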

Additional observations from a re-analysis of the deposited data

Results flagged for a closer look

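The FK228 effect with YF minus that without YF passed edgeR's interaction test for 5 members. It also passed for 8 genes named from the other lists, which were picked among called genes of largest change. Among members the log2 values were 0.7353 for Bcl2l11 (adjusted p = 0.000725), -0.4961 for Bcl2l1 (0.000279), -0.4054 for Bax (0.0115), 0.3421 for Bbc3 (0.0428) and -0.3259 for Bid (0.00379). Of the death receptor genes, Birc3 gave -0.6909 (adjusted p = 0.000588), Fas -0.6771 (3.09e-06) and Casp8 -0.5427 (5.13e-05). Of the mitochondrial genes, Diablo gave 0.5457 (adjusted p = 9.37e-05) and Dffa 0.5165 (0.00136). Of the regulators, Ddit3 gave 0.8804 (adjusted p = 4.46e-07), Fbxw7 0.4803 (0.043) and Trp53 -0.3034 (0.00699). In full, the same test called 0 higher and 7 lower of 11 death receptor genes and 2 and 1 of 14 mitochondrial genes. It called 3 and 1 of 12 regulators and 0 of 10 other family genes. Over all tested genes 26.5% passed.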

How the results depend on the processing

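Of 70 member results, 44 were called, of which 36 kept their call in every alternative run (19 settings) and 8 lost it in some. Over all tested genes the share called in the same comparisons ran from 26.5% (interaction) to 77.3% (both versus control). No called result changed direction. Members called ranged over the alternatives from 6 to 7 (FK228 versus control), 2 to 3 (YF versus control), 7 to 8 (both versus control), 6 to 8 (both versus YF), 7 to 9 (both versus FK228), 4 to 5 (interaction) and 4 to 6 (FK228 versus YF). RLE scaling moved the median of all genes by at most 0.0428. Same-numbered libraries did not deviate together (18 pairs, r -0.2151 to 0.0889, 1 of 12 libraries closest to its own number), and the replicate block left the counts of members called at 6, 3, 7, 8, 9, 5 and 6. Uncalled values changed sign, and the cause was not tested. With a library left out, Bax ran from -0.1476 to 0.0219 (FK228 versus control) and -0.008 to 0.1049 (YF versus control), Bbc3 from -0.1371 to 0.0063 (YF versus control) and -0.0771 to 0.0711 (both versus YF), and Bcl2l1 from -0.069 to 0.0242 (FK228 versus YF). Bbc3 gave -0.0079 without a count filter (both versus YF), and Bcl2l1 gave 0.0054 with RLE scaling, 0.0032 with DESeq2 and 0.0035 with compared groups only (FK228 versus YF). The survival to death ratio against control, without Bax, was 0.5357 with FK228, 0.0942 with YF and 0.2356 with both. With both it was also 0.1534 without Bcl2l1, -0.1689 without Mcl1 and 0.0157 without Pmaip1, and with a library left out it ran from 0.0728 to 0.2296 with FK228, -0.1381 to -0.0554 with YF and -0.0668 to 0.0193 with both. The survival to BH3-only ratio, without Bmf, was 0.3356 with FK228, -0.078 with YF and -0.1289 with both. It was 0.7068 with FK228 without Pmaip1 and 0.2758 with YF without Bid. With both it was 0.4316 without Bcl2l1, 0.1093 without Mcl1, 0.1149 without Bid, 0.3758 without Bbc3 and 0.5675 without Pmaip1. Alternatives for the survival to BH3-only ratio were chosen after seeing the data. Bcl2 had the fewest counts of the members (253 to 357 a library).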

Other observations

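A length in bases behind each gene's values is implied by its count, its FPKM and the library total. For Bmf it was 4410, 4386 and 4418 bases with FK228, 4381, 4368 and 4403 with YF, 4429, 4448 and 4448 with both, and 4364, 4359 and 4344 in control. Each of the 3 treated groups lay above control without overlap, although the differences were small beside the length itself. For Mcl1 the same quantity stayed between 3292 and 3302 bases over all 12 libraries. In bases, Bcl2 and Bcl2l11 ranged more widely than Bmf, and the remaining members less widely. Bcl2 ran from 5113 bases (YF replicate 2) to 6781 (control replicate 3). Bcl2l11 ran from 4243 (control replicate 1) to 4606 (FK228+YF replicate 1). GENCODE M21 lists 8 transcripts of Bmf, of which 2 are protein coding, and which transcripts carried the counts was not tested.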
